A study of Mus musculus with 9 samples.

Results

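Cytosolic ribosomal protein genes encode the proteins of the small and large subunits of the ribosome that translates messages in the cytoplasm. They were taken as the rows of the count and FPKM tables whose symbol is Rpl or Rps followed by a number (with the suffixes a, x, l, al and a1), the P stalk genes Rplp0, Rplp1 and Rplp2, and Rpsa. This rule gave 83 genes of 46072, namely 33 of the small subunit, 47 of the large subunit and 3 of the P stalk. The annotation (GENCODE M21) classes 1 of them, Rps4l, as a transcribed processed pseudogene and the others as protein-coding. Where a symbol had several rows, the one with the highest mean FPKM was kept, and no other measured value entered the rule. RNA was sequenced from monocytes that had been enriched from the spleen by magnetic negative selection, in female C57BL/6 mice of 8 to 10 weeks. All 3 groups had 3 libraries each. The Con group was given water by gavage during 6 days, and the Van group 2 mg of vancomycin per mouse and day. VanLip mice received the same vancomycin and then L654, a serine-glycine lipodipeptide of Bacteroidota and a TLR2 ligand, by retro-orbital injection on days 7, 9 and 11. The labels give no injection for Con and Van. The rest without antibiotic was 6 to 8 days in the labels and 8 days for the sequenced mice in the text of the study, and the cells were not stimulated in culture.

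Ribosomal proteins are needed in fixed proportions for ribosome assembly, and their genes are among the most active in most cell types. Their messages begin with a run of pyrimidines, the 5′ terminal oligopyrimidine (TOP) motif, through which mTOR and LARP1 set their translation. Ribosomal protein genes have also left many processed pseudogenes in the mouse genome, whose sequences can be nearly identical to the parent message. A few members have a duplicate that is used in 1 tissue, such as Rpl3l in striated muscle and Rpl10l and Rpl39l in the testis.

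RefSeq promoter sequences (GRCm38.p6) were given for 62 of the 83 genes. In the 30 bases from 20 before to 10 after the start site, a run of at least 7 pyrimidines (C or T) that begins with C on the strand of the gene was found for 31 of the 62 members (50%) and for 16.9% of the 27025 genes with a promoter in the table. The letters CCGGAAG, on either strand of the 300-base promoter, were found for 41.9% of the members and 9.93% of all genes, and TATAAA on either strand for 9.68% and 15.7%. The following windows are shown for members that recur in the results, 5′ to 3′ on the strand of the gene, with the longest such run in capitals. Rps6 and Rps10 were higher and Rpl7a, Rpl13 and Rps12 lower in VanLip than in Van libraries, Rps28 was lower in VanLip than in Con libraries, Rps9 was among the most abundant members, Rpl14 varied least among the libraries, and Rpl10l was listed at 0.
Rps6 (chr4:86857358-86857387, minus strand): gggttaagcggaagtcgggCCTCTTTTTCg
Rps10 (chr17:27635235-27635264, minus strand): acgctgcgccgcgcacgCCCCTTCCTTTCC
Rpl7a (chr2:26910787-26910816, plus strand): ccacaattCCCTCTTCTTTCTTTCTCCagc
Rpl13 (chr8:123102330-123102359, plus strand): gtcaCTTCCCTTTCgcctgattttgattgg
Rps12 (chr10:23787200-23787229, minus strand): ttaaataccgtcatgcggccaccgccggcc
Rps28 (chr17:33824553-33824582, minus strand): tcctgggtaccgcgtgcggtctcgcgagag
Rps9 (chr7:3704021-3704050, plus strand): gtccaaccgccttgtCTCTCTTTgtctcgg
Rpl14 (chr9:120571497-120571526, plus strand): cggcagggcgggCCCTCTCTCTTCTCgctg
Rpl10l (chr12:66284392-66284421, minus strand): agaaatttggcctccattttgcggctggcg
Among the members called below, Rps6, Rps10, Rpl7a and Rpl13 had such a run in this window, and Rps12, Rps28, Rps23, Rpl12, Rpl27 and Rpl36al had none. Rpl10l had none either. A run is a description of these letters and not evidence of how a gene is regulated.

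The libraries were checked before the members were compared. Total expected counts ranged from 4.31e+07 to 6.14e+07 for Con and Van and from 1.71e+08 to 1.85e+08 for VanLip. The commonest low count, which is the size of 1 read, was 2.00 in every VanLip library but 1.33 in the others, and in reads of that size the totals were 3.24e+07 to 4.62e+07 and 8.53e+07 to 9.24e+07. With the default of 75 bases that tximport divides by, such sizes would correspond to reads of 150 and 100 bases, while the methods give reads of 100 bases for all libraries. Depth and read size thus cannot be told apart from the VanLip group. All 14 monocyte markers were detected, with summed levels of 10992 to 13150 FPKM, against 12.8 to 18.2 FPKM for 10 B cell markers, 8.20 to 18.1 FPKM for 10 T cell markers and 0.389 to 0.980 FPKM for 8 NK cell markers. The 10 neutrophil markers summed to 103.4 to 140.6 FPKM and the 8 red pulp macrophage markers to 1468 to 2336 FPKM. Of the neutrophil sum, Csf3r made up 82.7 to 110 FPKM and Mmp8 10.5 to 33.8 FPKM, while Ly6g was at 0 in all 9 libraries. The 9 dendritic cell markers summed to 105.1 to 136.9 FPKM. The 9 erythroid markers in the table summed to 104.1 to 206.7 FPKM in Con, 345.4 to 776.2 FPKM in Van and 282.4 to 1168 FPKM in VanLip libraries, and the part of erythroid RNA in the values below was not tested. Single markers also differed between groups within these sums, of which Lyz2 made up 6428 to 9154 FPKM. Ccr2, a marker of classical monocytes, was at 159 to 173 FPKM in Con, 70.4 to 98.2 FPKM in Van and 156 to 256 FPKM in VanLip libraries. Itgam was at 200.1 to 214 FPKM, 174 to 183 FPKM and 192 to 239 FPKM, and the macrophage marker Vcam1 at 132 to 167 FPKM, 189 to 238 FPKM and 130 to 173 FPKM. Other monocyte markers of the list leaned higher in Van. Cd14 was at 145 to 161 FPKM in Con, 173 to 193 FPKM in Van and 93.8 to 196 FPKM in VanLip libraries. Treml4 was at 214 to 237 FPKM, 233 to 283 FPKM and 234 to 286 FPKM in the same order. Fcgr4 was at 111 to 145 FPKM, 143 to 215 FPKM and 108 to 151 FPKM. These single markers were named after their values were seen, and the part of such shifts in the results was not tested. Among the libraries, 69 of 81 members lay above their own mean in Van replicate 3 and 16 of 81 in VanLip replicate 3, the highest and the lowest of the 9 libraries.

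Ribosomal protein genes were among the most abundant messages of the splenic monocytes. Their median level was 426 FPKM (fragments scaled for transcript length and library depth, which allows genes of different length to be compared), and 75 of the 83 had a mean of at least 100 FPKM. They made up 61 of the 200 genes with the highest mean FPKM, 28 of the top 100 and 6 of the top 50. The members took 9.32% ± 0.200 of the summed FPKM in Con (SD, n = 3), 9.43% ± 0.163 in Van and 9.12% ± 0.201 in VanLip libraries. Con overlapped both other groups, while every Van library (9.31% to 9.62%) lay above every VanLip library (8.90% to 9.29%). By summed counts, in which these short messages weigh less, single libraries lay between 3.41% and 3.63% in all 3 groups.

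The small subunit members had a median of 514 FPKM and the large subunit members one of 389 FPKM. The most abundant member was Rps29, a small subunit protein, with a mean of 1038 FPKM over the 9 libraries. Rps9 had 1037 FPKM, and the X-linked Rpl10 was the most abundant large subunit member with 918 FPKM. Neighbours in this order could not be separated, since Rps29 ranged from 868 to 1146 FPKM and Rps9 from 968 to 1141 FPKM. The order over all members was nevertheless similar in every library, with a Spearman correlation of 0.967 to 0.995 between the 36 pairs of libraries over 83 genes that share their transcript lengths.

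The P stalk recruits the elongation factors to the ribosome. Its 3 genes did not have equal message levels, as Rplp1 had 866 ± 9.98 FPKM, Rplp0 714 ± 18.3 FPKM and Rplp2 326 ± 9.75 FPKM in Con libraries (SD, n = 3). The ranges of Rplp1, Rplp0 and Rplp2 did not overlap in any of the 3 groups. Members with a known second role were also expressed at a high level. Rps27a, which is made as a fusion with ubiquitin, had 559 ± 10.2 FPKM in Con libraries. Rpsa, also known as the laminin receptor, had 414 ± 3.61 FPKM, and Rps3, which also binds NF-κB, had 260 ± 2.18 FPKM. Rpl13a, a part of the interferon-activated inhibitor of translation in myeloid cells, had 721 ± 23.5 FPKM.

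**Figure D1:**
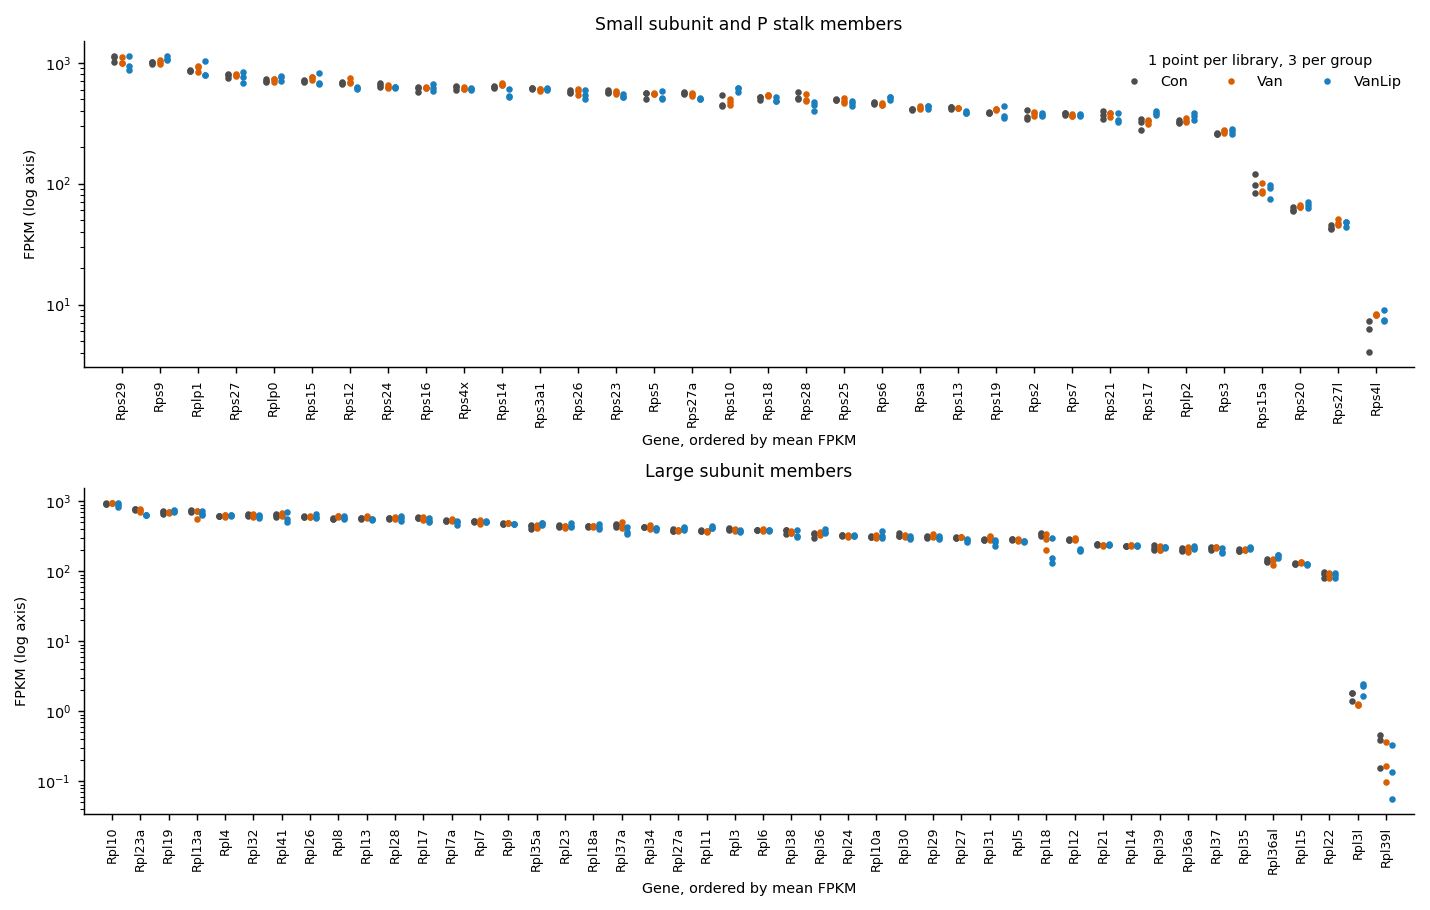
FPKM on a log axis for 80 members above 0, ordered by mean level, with the small subunit and P stalk above and the large subunit below and 1 point for each of the 9 libraries (Con grey, Van orange, VanLip blue). Nearly all lie above 100 FPKM, and the duplicates Rps4l, Rpl3l and Rpl39l lie at 7.37, 1.69 and 0.239 FPKM.

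The lowest members were duplicates of other members. Rpl10l was listed at 0 in all 9 libraries, while Rpl10 had 918 FPKM. Rpl39l had a mean of 0.239 FPKM, or 0.111% of Rpl39, with normalized counts of 5 to 29 in the 9 libraries, which is too few to compare groups. Rpl3l had 1.69 FPKM, or 0.433% of Rpl3, and the annotated pseudogene Rps4l had 7.37 FPKM against 615 FPKM of Rps4x. The other 2 duplicates were well expressed. Rps27l, a p53 target, had 46.1 FPKM and 5.93% of the level of Rps27, and Rpl36al had 149 FPKM and 70.7% of the level of the X-linked Rpl36a. The longest stretch of identical bases between the transcripts of a pair was 11 to 38 bases.

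The members varied less among the 9 libraries than other abundant genes. For the 75 members with a mean of at least 100 FPKM, the SD of the log2 normalized count over all libraries had a median of 0.0718, against 0.128 for the 547 other genes at that level. Of these members, 90.7% lay below the median of the other genes. The low spread was shared by the other genes with TOP messages at that level, such as Eef2 (0.0333) and Eef1a1 (0.0382). Their median was 0.0638 over 17 genes, of which 10 lay below the median of the members. These are descriptions of levels that share 9 libraries, and no test was made of them. Rpl14 varied least, with normalized counts of 20630, 20718 and 20514 in Con, 20367, 20721 and 21171 in Van, and 20344, 20538 and 20513 in VanLip libraries. Its SD was 0.0172 on the log2 scale. Rpl6 and Rps3a1 followed with 0.0191 and 0.0268. Among members with a mean of at least 1 FPKM, the largest SDs were those of the low duplicates Rps4l (0.334) and Rpl3l (0.265), followed by Rpl37a (0.180). Below that level, Rpl39l had an SD of 0.862 on its few counts.

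**Figure D2:**
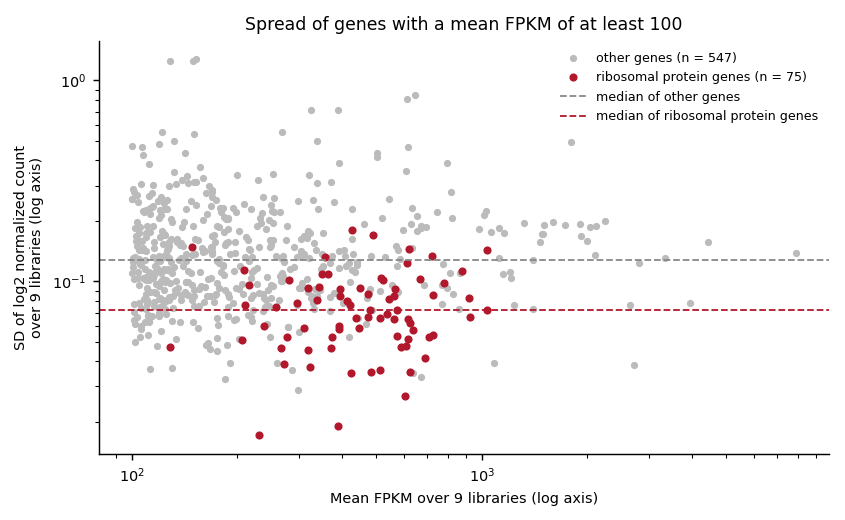
SD of the log2 normalized count over 9 libraries against mean FPKM (both on log axes) for genes with a mean of at least 100 FPKM. The 75 ribosomal protein genes (red) have a median of 0.0718 and the 547 other genes (grey) a median of 0.128, each drawn as a dashed line.

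The first comparison set vancomycin against water. No ribosomal protein gene passed the test between Van and Con libraries. With DESeq2 (Wald test, Benjamini-Hochberg adjustment after independent filtering of low counts, threshold 0.05), 0 of the 82 tested members were called, against 4.33% of all tested genes. At an unadjusted p under 0.05 there were 2 members (2.44%), against 11.1% of all genes, and edgeR called 0 members, against 1.21% of all genes. The normalized counts of both groups did not overlap for 9 of the 81 members with a mean of at least 50 (11.1%), against 24.1% of all genes at that level. The log2 fold changes had a median of 0.00 and a median size of 0.03. For 76 of the 81 members, the 95% interval from the SE lay within a change of 1.2-fold in either direction. By subunit, 17 of 33 small subunit, 22 of 45 large subunit and 2 of 3 P stalk members had a positive fold change.

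The members with an unadjusted p under 0.05 were the low duplicates. Rps4l had normalized counts of 371, 574 and 648 in Con and 763, 717 and 746 in Van libraries, a log2 fold change of 0.49 ± 0.19 (SE) with an adjusted p of 0.1503. The groups did not overlap, but Con replicate 1 lay far below the other libraries. Rpl3l had 247, 241 and 184 in Con and 170, 160 and 163 in Van libraries, a log2 fold change of -0.45 ± 0.20 with an adjusted p of 0.222. The groups did not overlap, and the lowest Con library was near the Van libraries.

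**Figure D3:**
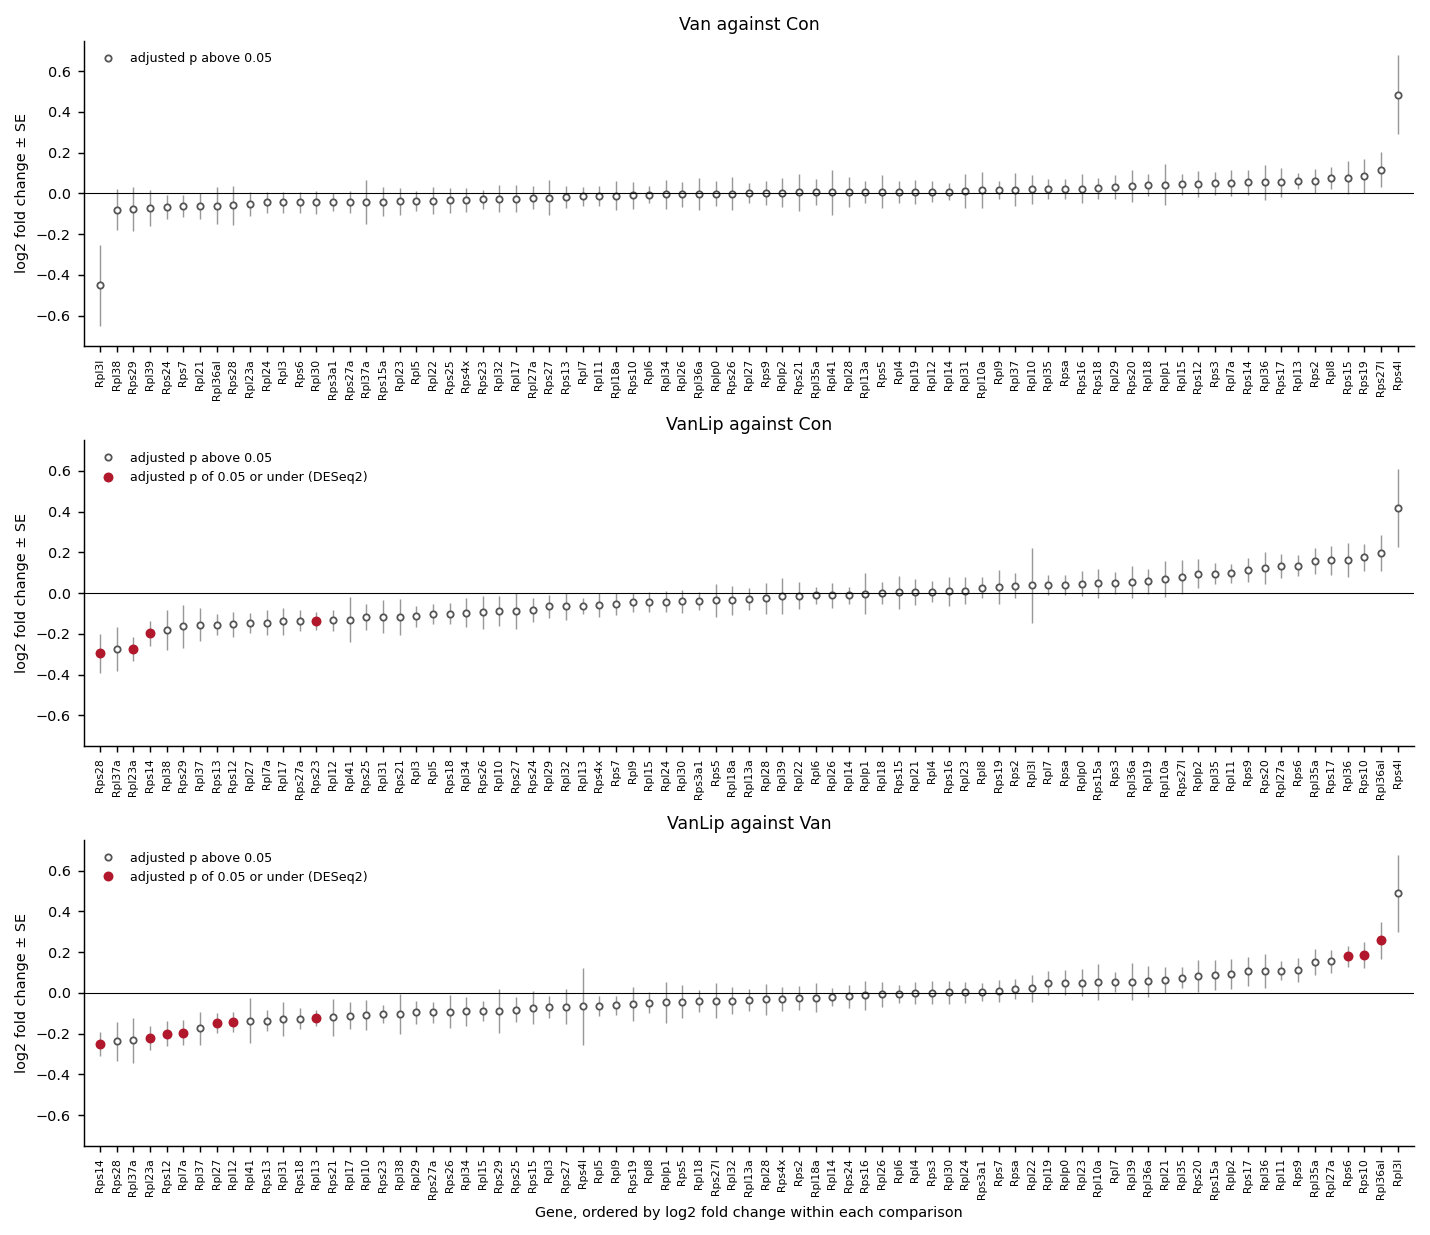
Log2 fold change ± SE (DESeq2) of 79 members whose normalized count averaged at least 50 in each comparison, ordered by fold change, with members at an adjusted p of 0.05 or under in red. No member is red in the upper panel (Van against Con), 4 are red in the middle one (VanLip against Con) and 10 in the lower one (VanLip against Van).

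The second comparison set vancomycin with L654 against water. DESeq2 called 4 of 82 members (4.88%), against 6.23% of all tested genes, and the share of members was thus near the background. The 4 were all lower in VanLip libraries, where 3.47% of all genes were called lower, and 0 were called higher, where 2.76% of all genes were. At an unadjusted p under 0.05 there were 24 members (29.3%), against 13.0% of all genes, 8 higher and 16 lower. The normalized counts did not overlap for 30 of 81 members (37.0%), against 24.5% of all genes. edgeR called 1 member, Rpl23a, against 1.78% of all genes. The median log2 fold change was -0.03 over the members and 0.01 over all tested genes.

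The differences were small. Rpl23a, a large subunit protein at the exit of the nascent chain, had normalized counts of 42215, 41478 and 40030 in Con and 34693, 33643 and 33884 in VanLip libraries. The VanLip libraries were lower by 17.4%, a log2 fold change of -0.28 ± 0.06 (SE) with an adjusted p of 0.000217. Rps28, a small subunit protein, had 19429, 21557 and 18720 in Con and 16764, 17298 and 14589 in VanLip libraries, a log2 fold change of -0.30 ± 0.10 with an adjusted p of 0.0354. Rps14, a small subunit protein whose loss underlies a form of myelodysplastic anaemia, had 39797, 39758 and 39551 in Con and 33947, 37001 and 32904 in VanLip libraries, a log2 fold change of -0.20 ± 0.06 with an adjusted p of 0.0213. Rps23, which lies at the decoding centre, had 41298, 41965 and 42331 in Con and 38047, 38811 and 37505 in VanLip libraries. It fell by 0.14 ± 0.04 on the log2 scale with an adjusted p of 0.0435. In each of the 4 genes every VanLip library lay below every Con library. For 60 of the 81 members the 95% interval lay within a change of 1.2-fold.

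The third comparison, VanLip against Van, set mice with and without the L654 injections side by side after the same vancomycin. It shares the VanLip libraries with the second, so both sets of calls are not independent. DESeq2 called 11 of 82 members (13.4%), against 9.20% of all tested genes. Of these, 3 were higher (3.66%, against 4.26% of all genes) and 8 lower (9.76%, against 4.94%). This split was reversed without Van replicate 3 (3 higher, 2 lower) and without VanLip replicate 3 (4 higher, 2 lower). Leaving out any other library kept more members lower than higher. Without Con replicates 1 to 3 the calls were 1 higher and 4 lower, 1 and 3, and 1 and 3. Without Van replicates 1 and 2 they were 0 and 2, and 0 and 4. Without VanLip replicates 1 and 2 they were 0 and 4, and 1 and 6. At an unadjusted p under 0.05 there were 21 members (25.6%), against 15.5% of all genes, and the normalized counts did not overlap for 25 of 81 members (30.9%), against 28.6%. edgeR called 1 member, Rps14, against 5.07% of all genes. The median log2 fold change was -0.04 over the members and 0.01 over all tested genes. By subunit, 5 of 33 small subunit and 6 of 45 large subunit members were called, and 0 of the 3 P stalk members.

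The 3 members that rose were Rps6, Rps10 and Rpl36al. Rps6, the substrate of the S6 kinases of the mTOR pathway, had normalized counts of 37810, 37032 and 39130 in Van and 44156, 41513 and 43390 in VanLip libraries, a rise of 13.2% (log2 fold change 0.18 ± 0.05, adjusted p = 0.00805). Rps10 had 26244, 24697 and 27281 in Van and 30755, 30259 and 27930 in VanLip libraries, with a log2 fold change of 0.19 ± 0.06 and an adjusted p of 0.0462. Rpl36al had 6250, 7401 and 7556 in Van and 8808, 8589 and 7953 in VanLip libraries, with a log2 fold change of 0.26 ± 0.09 and an adjusted p of 0.0465. The VanLip libraries lay above the Van libraries in all 3 genes, and Van replicate 1 was the low library for Rpl36al.

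Of the 8 members that fell, Rps14 had the lowest adjusted p, with normalized counts of 41179, 41709 and 40744 in Van libraries against the VanLip values given above, a log2 fold change of -0.25 ± 0.06 and an adjusted p of 0.000825. Rpl23a had 37985, 39306 and 42051 in Van libraries, a log2 fold change of -0.22 ± 0.06 and an adjusted p of 0.00335. Rps12 of the small subunit fell by 0.20 on the log2 scale. Of the large subunit, Rpl7a fell by 0.19, Rpl13 by 0.12, Rpl27 by 0.15 and Rpl12, which lies at the base of the stalk, by 0.14. The adjusted p-values of these 5 genes were 0.0201 to 0.0499. Rps12 had 32014, 30041 and 33936 in Van and 28788, 27386 and 27409 in VanLip libraries. All VanLip libraries were below all Van libraries in each of the 8 genes. The low duplicate Rpl3l had 247, 215 and 231 in VanLip libraries, a log2 fold change of 0.49 ± 0.19 that did not pass (adjusted p = 0.0824).

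**Figure D4:**
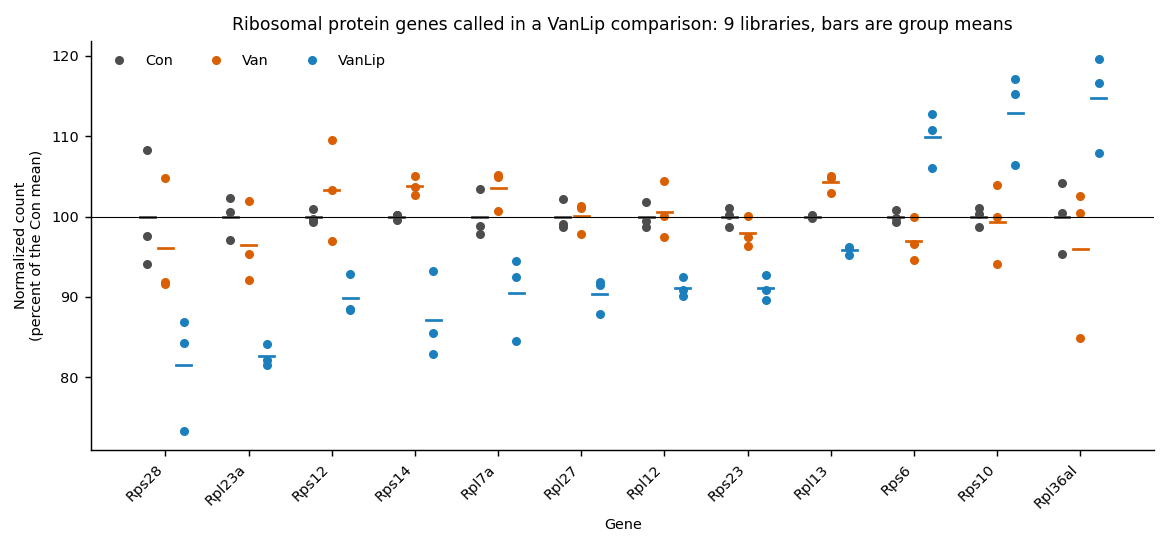
Normalized count as a percentage of the Con mean for 12 of the members called in a VanLip comparison, with 1 point per library and bars at the group means (Con grey, Van orange, VanLip blue). The VanLip points lie apart from those of the group they were called against, below it in 9 genes and above it in Rps6, Rps10 and Rpl36al.

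The split between higher and lower members also depended on the scaling of the libraries. With TMM library sizes, 2 members were called higher (Rps6 and Rps10) and 2 lower (Rpl23a and Rps14) in the comparison with Con, against 4.02% and 3.00% of all genes. In that with Van, 4 were higher and 2 lower, against 5.41% and 4.28%. With total counts as size factors, 2 were higher and 1 lower than in Con (4.22% and 2.99% of all genes), and 4 higher and 3 lower than in Van (5.65% and 4.40%). After a correction for transcript length and GC content, 0 of 82 were higher and 16 lower than in Con (2.09% and 3.17% of all genes), and 0 higher and 15 lower than in Van (4.34% and 5.18%). The sign of the fold change was the same with TMM library sizes, edgeR and limma on FPKM for all 15 differences called in the DESeq2 fit.

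Counts were also read on the pseudogene copies of the members. Annotated pseudogenes with at least 80% identity to a member over at least 100 bases numbered 1226, of which 909 were detected, and 81 of the 83 members had at least 1. Over all members the counts on copies equalled 6.79% to 8.11% of the counts on the members in Con and Van libraries and 8.36% to 11.0% in VanLip libraries. In each of the 10 members that were called lower, the copies had a larger share in VanLip than in Con and in Van libraries. In each of the 3 called higher, they had a smaller one. Over all 80 members with a value, the share was larger in VanLip than in Con for 44 and larger than in Van for 43. Since the count of the member is the denominator, a fall of the member raises this share by itself, in proportion to the fall. For Rps28, the copies amounted to 7.17% ± 0.533 of the member's counts in Con (SD, n = 3), 6.46% ± 0.972 in Van and 29.2% ± 4.62 in VanLip libraries, most of all on Gm10443. For Rps12 the libraries lay at 6.17% to 8.51%, 6.70% to 7.88% and 22.5% to 29.8%, most of all on Rps12-ps3. For Rpl23a they were 18.9% ± 1.70, 19.0% ± 0.467 and 30.2% ± 5.88. Rps10 went the other way, with 11.4% ± 1.33, 10.9% ± 0.841 and 7.14% ± 1.51. Across the 80 members with a value, the log2 fold change had a Spearman correlation with the difference in copy share of -0.054 in the comparison of Van with Con. It was -0.633 where VanLip was compared with Con and -0.581 where it was compared with Van. These correlations share the member's count on both axes.

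The counts of the copies were then added to the member, an analysis chosen after seeing the data. The 15 called differences became smaller, which the copy shares above already set and which is no separate evidence. DESeq2 then called 0 of 82 members in VanLip against Con, against 5.51% of all genes, with 8 at an unadjusted p under 0.05, against 12.3% (edgeR was not run on these sums). It called 2 against Van, where 9.91% of all genes were called and 8 members and 14.7% of all genes had an unadjusted p under 0.05, namely Rps14 at -0.24 ± 0.06 (adjusted p = 0.00447) and Rpl11, which is named here after its value was seen, at 0.17 ± 0.06 (adjusted p = 0.0257). The log2 fold change of Rps28 for VanLip against Con went from -0.30 to -0.03, and that of Rps12 for VanLip against Van from -0.20 to 0.03. Other differences lost the call with nearly the same size, such as Rps14 against Con (-0.20 to -0.19, adjusted p = 0.0563), Rps6 against Van (0.18 to 0.14, adjusted p = 0.0523) and Rpl36al against Van (0.26 to 0.23, adjusted p = 0.101). The result depended on which copies were added. With only the pseudogenes named after a member, 8 of the 15 differences were still called, against 1 of 15 with those matched by sequence, and Rps28 stayed at -0.30 (adjusted p = 0.0354). Rps14, with copies at 2.92% to 4.04% of its counts in the group means, kept nearly the same value. A read that matches a member and its copy cannot be assigned from these tables, and the median member shared 34.2% of its 100-base windows and 25.4% of its 150-base windows exactly with a transcript of another gene.

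**Figure D5:**
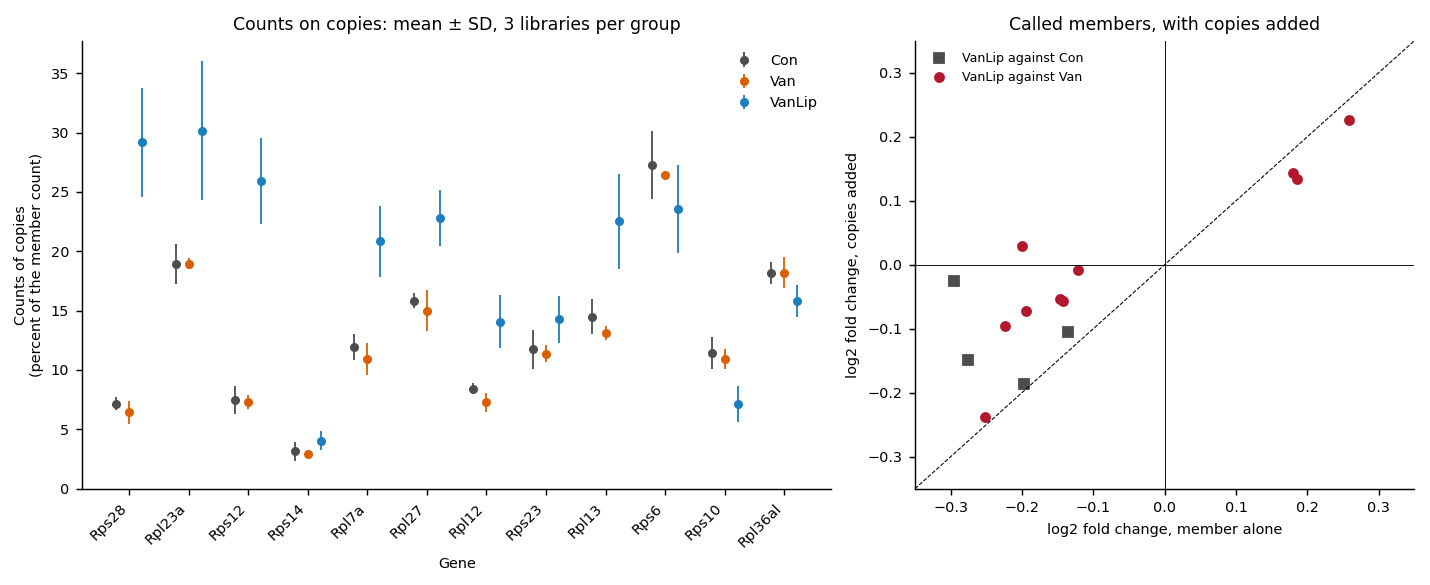
Left, counts on annotated copies as a percentage of the member's count for 12 called members (mean ± SD, 3 libraries per group). Right, log2 fold change of 14 called differences for the member alone and with its copies added, where points off the dashed line of equality lie nearer to 0 after the addition, as for Rps28 (-0.30 and -0.03).

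The FPKM of a few members moved apart from their counts. The ratio of count to FPKM, after the scale of each library was removed, differed by more than 1.2-fold among libraries for 5 of 79 members, against 3.77% of all genes. Rpl12 had 284 ± 4.37 FPKM in Con, 290 ± 7.06 FPKM in Van and 201 ± 4.31 FPKM in VanLip libraries, a difference for VanLip against Van of -0.54 on the log2(FPKM + 1) scale against -0.14 by counts. Rpl18 had 323 to 358 FPKM in Con libraries, 204 to 345 FPKM in Van and 132 to 299 FPKM in VanLip libraries. The values of these members therefore depend on the unit.

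Genes that act with the members were read from fixed lists. Of 22 other genes with TOP messages, such as Eef1a1 and Tpt1, 0 were called by DESeq2 in any of the 3 comparisons. Of all tested genes, 4.33%, 6.23% and 9.20% were called for Van against Con, VanLip against Con and VanLip against Van. At an unadjusted p under 0.05 there were 0, 1 and 1 by DESeq2 for Van against Con and the 2 VanLip comparisons. In that order, 11.1%, 13.0% and 15.5% of all genes lay under that level. edgeR called 0 of the 22 in each, against 1.21%, 1.78% and 5.07% of all genes. The summed level of the 22 genes was 8837 to 9391 FPKM. Of 25 ribosome biogenesis genes, 1 was called, in VanLip against Con, where 6.23% of all genes were. There were 2, 2 and 5 at an unadjusted p under 0.05, in the same order of comparisons, against 11.1%, 13.0% and 15.5% of all genes. Nip7, which acts in the maturation of the large subunit, had normalized counts of 891 to 1065 in Con and 1221 to 1290 in VanLip libraries (log2 fold change 0.39 ± 0.13, adjusted p = 0.0480). Of 18 genes of RNA polymerase I and III, 2 were called, with 1 call in each comparison (4.33%, 6.23% and 9.20% of all genes). Those at an unadjusted p under 0.05 numbered 1, 3 and 5, against 11.1%, 13.0% and 15.5% of all genes. Taf1b, a subunit of the selectivity factor of RNA polymerase I, had 1913 to 2117 in Con, 1610 to 1696 in Van and 1959 to 2190 in VanLip libraries. It fell by 0.28 ± 0.09 on the log2 scale in Van against Con (adjusted p = 0.0373) and was higher by 0.35 ± 0.09 in VanLip against Van (adjusted p = 0.00107). Polr1d, shared by both polymerases, was higher in VanLip than in Con libraries by 0.22 ± 0.07 (adjusted p = 0.0196).

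Of 16 genes in the control of ribosomal protein production, 15 were tested and 3 were called, all lower. In VanLip against Con these were 3 of 15, where 3.47% of all genes were called lower. In Van against Con it was 1 of 15, where 382 of 18526 genes were called lower. In VanLip against Van it was 0, where 4.94% of all genes were called lower. At an unadjusted p under 0.05 there were 3, 5 and 3 of 16 by DESeq2 and 3, 8 and 2 of 16 by edgeR, which called 0 in each. The order is Van against Con, VanLip against Con and VanLip against Van. Of all genes, 11.1%, 13.0% and 15.5% lay under that level by DESeq2, and 2484, 3001 and 3544 of 16867 by edgeR. Rps6ka3, an S6 kinase of the RSK family, had 12418 to 12497 in Con, 10230 to 10931 in Van and 10212 to 11091 in VanLip libraries. It fell by 0.25 ± 0.06 on the log2 scale in Van (adjusted p = 0.00234) and by 0.22 ± 0.06 in VanLip (adjusted p = 0.00627), each against Con. Larp1, which binds the TOP motif, fell by 0.22 ± 0.07 in VanLip against Con (adjusted p = 0.0486). The transcription factor Sp1 fell by 0.21 ± 0.06 in the same comparison (adjusted p = 0.0248). Of the 8 differences called in these lists, edgeR called 1, that of Taf1b for VanLip against Van.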

How the data were processed

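RNA was sequenced from 9 libraries of splenic monocytes (3 Con, 3 Van and 3 VanLip), prepared with a poly(A) strand-marking kit. The authors aligned the reads with HISAT2 2.2.1 to GRCm38, processed them with SAMtools 1.9 and assembled abundances with StringTie 2.1.3, and made gene counts with tximport; the annotation release is not given in the sources used here. The deposited tables hold expected counts and FPKM per gene, and the whole tables were used in all fits. Expected counts were rounded and tested with DESeq2 1.42.0 (R 4.3.3) in 1 fit over the 9 libraries with group as the only term, median-of-ratios scaling and Benjamini-Hochberg adjustment. Of the 26108 genes above 0 in at least 1 library before rounding, 25420 had a p-value, and 17546 to 19017 had an adjusted p after the default independent filtering. edgeR 4.0.16 and limma 3.58.1 (quantile-normalized log2(FPKM + 1)) served as alternatives. The fits were tested on simulated counts with 200 changed genes.

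All 83 identifiers matched GENCODE M21 on GRCm38, from which pseudogene copies were found with BLAST 2.17.0. Named members were those called (up to 8 in each direction), the 4 highest and lowest by FPKM, the pairs of duplicates, 8 members of known further role, and the 3 most and least variable. The members and lists were chosen with earlier results of these data known. Whether libraries are separate mice is taken from the methods of the study, and p-values measure the spread between these libraries. Fold changes on the log2(FPKM + 1) scale understate changes of low genes. Values of some members are not reported here, and these are left out of the plots that name genes.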

Additional observations from a re-analysis of the deposited data

How the results depend on the processing

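The count of members called at an adjusted p of 0.05 was compared under 25 alternatives. For Van against Con it stayed at 0 under all of them except without Con replicate 3, where Rps4l was called (1 member, log2 fold change 0.65). For VanLip against Con (4 members), it was 1 with only the 2 groups compared, 1 with a replicate block, 2 without independent filtering, 16 after correction for length and GC content, 1 with edgeR, 2 with limma on log2(FPKM + 1), 1 with limma on log2(FPKM + 0.1), 1 with limma at a mean FPKM of at least 1, and 0 with the copies matched by sequence added, an alternative chosen after seeing the data. It was 6 with at least 10 counts in 3 libraries and 6 with protein-coding genes only, with all calls lower. Under the other alternatives that keep all libraries it was 3 or 4. For VanLip against Van (11 members), it was 6 with TMM library sizes, 7 with total counts, 2 with only the 2 groups compared, 2 with the replicate block, 5 with the copies named after a member added, 2 with those matched by sequence added, 1 with edgeR, 7, 1 and 4 with the same 3 limma fits in turn, and within 1.5 times of 11 under the other alternatives that keep all libraries. Calls over all genes also differed between fits. For VanLip against Con, the main fit called 1093 of 17546 genes and that with the replicate block 1157 of 24487. There edgeR called 300 of 16867 and limma on log2(FPKM + 1) 237 of 26108. For VanLip against Van they were 1749 of 19017, 1629 of 24963, 855 of 16867 and 688 of 26108, in the same order. The cause of these changes was not tested. The median log2 fold change of the members moved by more than the spread between libraries only after the correction for length and GC content, to -0.097 in the comparison of VanLip with Con and -0.083 in that with Van.

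Leaving out 1 library at a time gave 0 to 1 members for Van against Con, 1 to 6 where VanLip was compared with Con and 2 to 7 where it was compared with Van, and medians of -0.03 to 0.01, -0.05 to -0.01 and -0.06 to -0.01. Over all genes the calls then numbered 406 to 923, 606 to 1273 and 1123 to 1651, against 803, 1093 and 1749 in the full fit. The genes with an adjusted p numbered 12420 to 19356 in these fits. For VanLip against Con the count of members was 1 without Con replicate 1, Con replicate 2 or Van replicate 2, and 2 without VanLip replicate 1 or 3. For VanLip against Van each library lowered it by more than 1.5 times, to 5, 4 and 4 without Con replicates 1 to 3, to 2, 4 and 5 without Van replicates 1 to 3, and to 4, 7 and 6 without VanLip replicates 1 to 3.

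For the 26 log2 fold changes of single genes given above, 649 alternative values were computed. The side of the threshold and the direction were kept in 359, the call was lost in 287 and gained in 2, and the direction turned in 1, Rps12 for VanLip against Van, which was 0.029 with the copies matched by sequence added. The correlation of deviations between libraries with the same replicate number was -0.0650 to 0.123, over 0.1 in 1 of 9 pairs, which shows no clear pairing. Libraries with different numbers were not compared, so these values cannot decide whether the libraries were paired. With the replicate block, Rpl23a was called between VanLip and Con, and Rpl23a and Rps14 between VanLip and Van.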
